A study of Homo sapiens with 18 samples.

Results

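The genes described here encode the proteasome, the particle that degrades proteins marked with ubiquitin, together with the factors that assemble, activate or inhibit it. They were taken as the protein-coding entries of the deposited expression table whose symbol is PSMA to PSMG followed by a number, without the immunoproteasome genes PSMB8, PSMB9 and PSMB10, which gave 44 of 57773 genes. RNA with a poly(A) tail was sequenced from RPE1 cells, an established human line derived from retinal pigment epithelium and made immortal by telomerase. There were 3 treatments: none, cytochalasin D (an actin poison under which cells fail to divide) and the Aurora kinase inhibitor ZM447439. Hoechst dye (2 µg/mL, 60 min) was used to sort the cells by DNA content into 2N and 4N populations. This made 6 groups of 3 libraries, 18 in all, from what the design calls biological replicates. The labels give 2.5 µM and 24 h for ZM447439 on every library, untreated ones included, and no dose or time for cytochalasin D. All groups come from the 1 line, so replicates are not separate donors, and a 4N sort can hold both G2 cells of a diploid culture and tetraploid cells in G1.

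In the proteasome, a barrel of alpha and beta rings (the 20S core) cuts proteins inside its chamber, and a cap of ATPases and other subunits (the 19S particle) binds ubiquitin, unfolds the substrate and feeds it in. The catalytic beta subunits are encoded by PSMB5, PSMB6 and PSMB7, and interferon-gamma can replace them with those of PSMB8, PSMB9 and PSMB10. Proteasome genes are known to be expressed together under the transcription factor NFE2L1, and the particle degrades cyclins and securin at the exit from mitosis.

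The 250 bases upstream of the annotated start, from RefSeq on GRCh38.p14, are shown for the 3 tested members with the largest fall on the log2(RPKM + 0.5) scale with cytochalasin D in 4N cells and for PSME1, which rose; 38 of the 44 members had a window in the table. Each is written 5′ to 3′ on the strand of the gene, with capitals marking matches to the motifs named afterwards. The windows are chr3:184298991-184299240 (plus strand, 1 of 2 annotated starts), chr21:39183452-39183701 (minus), chr11:47426440-47426689 (minus) and chr14:24135944-24136193 (plus), in that order.
PSMD2: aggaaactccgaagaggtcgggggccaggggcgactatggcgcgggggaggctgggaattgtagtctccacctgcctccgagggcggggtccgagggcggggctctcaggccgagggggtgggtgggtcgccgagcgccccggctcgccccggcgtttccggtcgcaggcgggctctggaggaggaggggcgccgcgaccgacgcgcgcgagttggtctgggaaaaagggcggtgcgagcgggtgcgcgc
PSMG1: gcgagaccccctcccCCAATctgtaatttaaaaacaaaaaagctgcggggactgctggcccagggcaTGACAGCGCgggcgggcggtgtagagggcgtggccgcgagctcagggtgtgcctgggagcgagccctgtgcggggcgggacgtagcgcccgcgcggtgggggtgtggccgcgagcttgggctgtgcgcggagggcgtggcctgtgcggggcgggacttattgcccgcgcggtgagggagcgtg
PSMC3: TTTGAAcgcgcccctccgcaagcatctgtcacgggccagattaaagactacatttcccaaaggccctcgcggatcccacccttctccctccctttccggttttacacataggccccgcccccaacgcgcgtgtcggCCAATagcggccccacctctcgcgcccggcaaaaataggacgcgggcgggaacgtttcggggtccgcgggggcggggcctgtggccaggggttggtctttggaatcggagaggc
PSME1: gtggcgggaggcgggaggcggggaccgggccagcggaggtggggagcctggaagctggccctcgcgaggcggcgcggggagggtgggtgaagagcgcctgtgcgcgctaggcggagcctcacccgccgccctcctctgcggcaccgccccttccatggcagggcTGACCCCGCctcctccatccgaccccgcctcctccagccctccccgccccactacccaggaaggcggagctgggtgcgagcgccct
In all, 5 motifs were searched on both strands. PSMG1 and PSME1 each held the core of the antioxidant response element, TGACNNNGC, the element NFE2L1 and NFE2L2 are known to bind, at 183 to 175 and 86 to 78 bases before the start (-183 to -175 and -86 to -78). PSMG1 and PSMC3 held a CCAAT box, and PSMC3 held TTTGAA, the cell cycle homology region, while the printed PSMD2 window held none of these letters. The window of the other annotated PSMD2 start, not printed here, held a match to TTTGAA. Over windows of the same 250 upstream bases, TGACNNNGC occurred in 23.9% of the 46 windows of the members and in 10.9% of all 35116 windows. CCAAT occurred in 37.0% and 32.0%, TTTGAA in 10.9% and 13.3%, the core of the interferon response element in 8.7% and 3.0%, and the gamma-activated site TTCNNNGAA in 13.0% and 6.6%. These matches are descriptions of letters, and the windows of 1 gene can overlap.

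The deposited values are RPKM, reads per kilobase of gene scaled to library size, and their steps show that the length used was the whole gene span with introns, so that a long gene has a low value. Implied library sizes were 51135642 to 78294394 reads. The test took in the 13037 genes whose mean reached 0.5 RPKM, 41 of the 44 members among them, and the lowest number of reads behind a tested member in any library was 572. Replicate 1 of both drugs and replicate 3 of the untreated cells lay farthest from the others of their group, in both sorts. The epithelial markers KRT8 and KRT18 and the pigment epithelium genes OTX2, BEST1 and PMEL were present, while CDH1, EPCAM and RPE65 stayed at or below 0.036 RPKM. Only 2 of the 4 epithelial and 3 of the 10 pigment epithelium genes listed reached the mean of 0.5 RPKM. The 10 pigment epithelium genes of the list summed to 54.0 to 60.6 RPKM without a drug and 63.4 to 147 with either, mostly BEST1 (47.1 to 54.6 and 58.9 to 141 RPKM). PMEL went the other way and fell in 4N cells by 2.24 with cytochalasin D and by 1.54 with ZM447439 on the log2(RPKM + 0.5) scale. The 6 blood cell markers summed to 0.204 to 0.677 RPKM and the endothelial ones VWF and CDH5 to at most 0.003. The 8 genes of G2 and mitosis summed to 240 to 256 RPKM in untreated 4N cells, 57.1 to 80.2 in untreated 2N cells, 18.96 to 19.77 and 6.59 to 12.5 in 4N and 2N cells with cytochalasin D, and 32.7 to 44.9 and 9.62 to 21.5 with ZM447439. The fibroblast markers COL1A1, COL1A2, PDGFRB, THY1 and VIM summed to 782 to 993 RPKM without a drug and 454 to 703 with either drug, mostly VIM. PDGFRB rose instead, from a mean of 1.01 RPKM in untreated 4N cells to 6.11 with cytochalasin D and 4.37 with ZM447439, and COL1A1 rose from 4.39 to 15.1 RPKM in 2N cells with ZM447439. These differences run along the same groups as the changes of the proteasome genes, and their part in them was not tested. In sorted bulk RNA, less RNA per cell and fewer cells that express a gene cannot be told apart.

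Among the members, levels can be set side by side only per length, and reads per kilobase of exon, scaled to library size, were used for this in untreated 2N cells. On that scale PSMD2, a subunit of the cap base, was at 115, PSMB7 at 110 and PSMA7, an alpha ring subunit, at 95.2. Below them came PSMB4 at 64.6, PSMB5 at 60.9, PSMC3 at 60.6 and PSMB6 at 55.9. The lowest tested members were the assembly chaperone genes PSMD9 at 5.61 and PSMD5 at 6.14. These levels rest on the gene span and exon length of the annotation used here. With that span, the implied reads were whole numbers in every library for 28 of the 44 members. For PSMC3 they were whole in 1 library and for PSMB6 in 4, so the span may not fit these genes. The sums of member reads given below carry the same limit. Transcripts of other genes also bear on the values: 20 members share exon bases with another gene, 17 of them on the opposite strand, which the unstranded kit cannot separate, and 11 have named pseudogenes, PSMC1 13 of them.

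With cytochalasin D nearly the whole set fell. Of the 41 members tested in 4N cells, 38 were lower and 2 higher than in untreated 4N cells, where 70.5% of all 13037 genes passed, 44.4% lower and 26.1% higher. The median change of the members was -0.51 on the log2(RPKM + 0.5) scale, used for every change here unless another is named, against -0.13 over all genes tested. The added 0.5 shrinks the changes of long genes, whose values over the span are low, so the order of members by change holds on that scale. In 2N cells the counts were again 38 lower and 2 higher, where 66.6% of all genes passed, 39.5% lower and 27.1% higher, with medians of -0.49 and -0.08. Reads of all members summed to 4810 ± 106 RPM (reads scaled to library size; SD, n = 3) in untreated 4N and 4613 ± 89.8 in untreated 2N cells, and to 3061 ± 78.7 and 2996 ± 52.8 with the drug. The sums of the drug and untreated libraries did not overlap. Rescaling the libraries to a common median ratio moved the median of all genes in 4N cells from -0.13 to 0.00 and left 34 members lower and 2 higher, and quantile normalization gave 31 lower and 5 higher with a member median of -0.30.

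**Figure D1:**
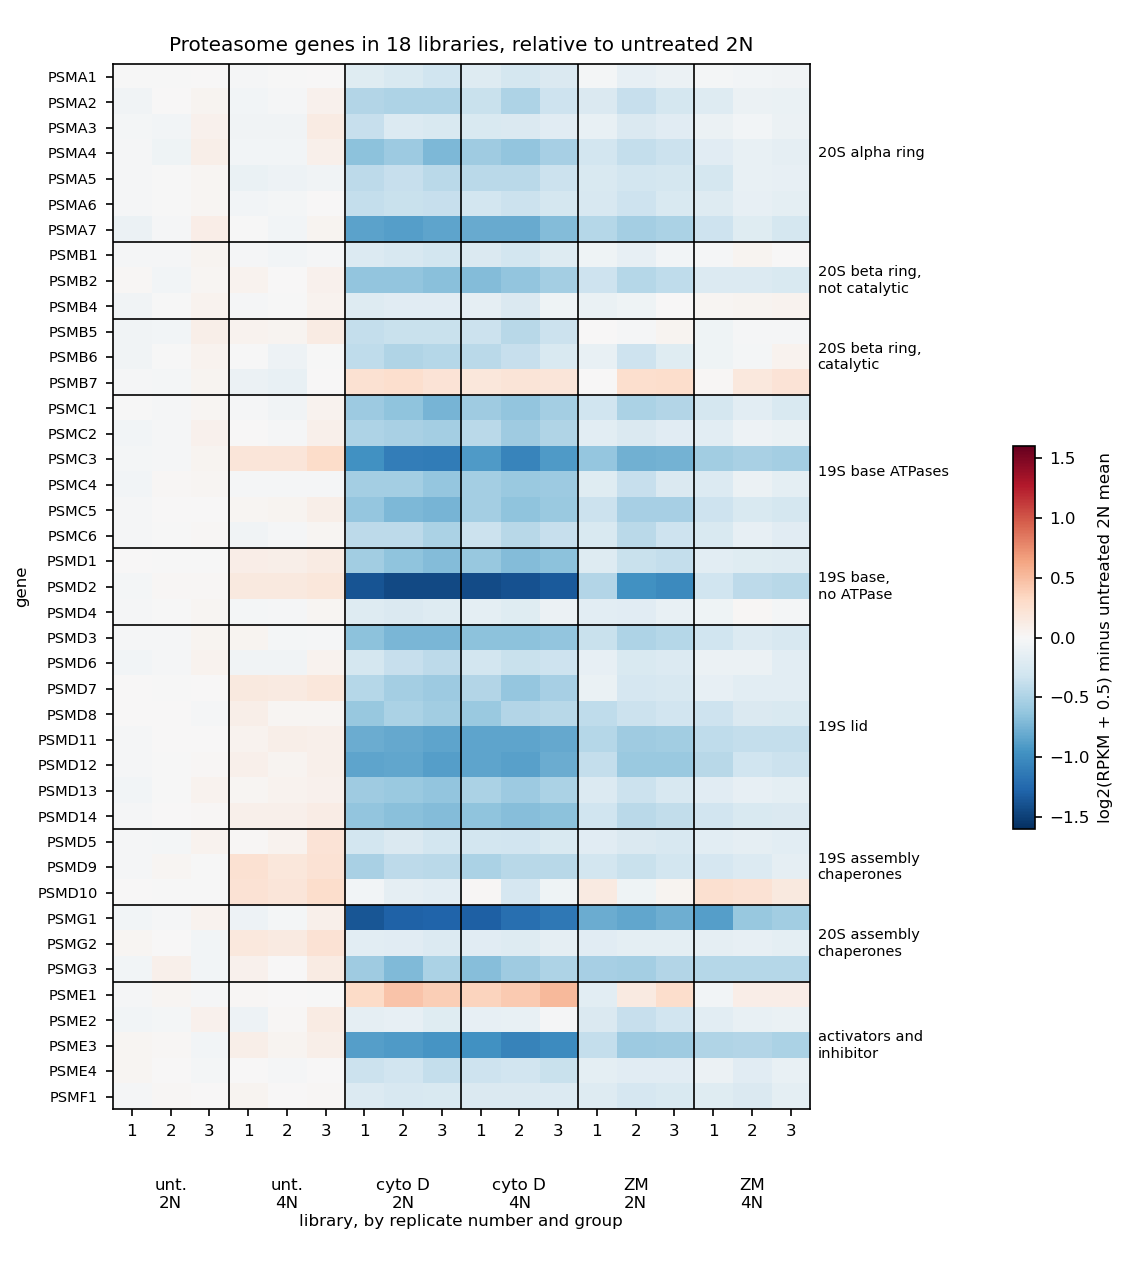
Level of the 41 tested proteasome genes in each of the 18 libraries (columns, by group and replicate number), as log2(RPKM + 0.5) minus the gene's mean in untreated 2N cells; blue is lower and red higher, and rows are grouped by role. The 6 cytochalasin D columns are blue in most rows, darkest at PSMD2, PSMG1, PSMC3 and PSME3, with PSMB7 and PSME1 red, and replicate 1 of ZM447439 2N is paler than replicates 2 and 3 at PSMD2.

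Among the 41 tested members the largest fall on that scale was in the cap. PSMD2, whose product is a scaffold of the cap base, measured 67.3, 67.1 and 68.2 RPKM in the untreated 4N libraries and 22.0, 22.6 and 23.5 with cytochalasin D. The groups lie far apart, and the change was -1.55 ± 0.10 (SE; limma, BH-adjusted p = 5.14e-09). In 2N cells PSMD2 went from 59.1, 61.0 and 61.1 to 22.9, 21.8 and 21.9 RPKM, a change of -1.42 ± 0.10. Its partner in the base, PSMD1, fell by 0.76 in 4N cells, and PSMD4, a ubiquitin receptor, by 0.14; the sign of PSMD4 turned when libraries were rescaled or quantile normalized.

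All 6 ATPase genes PSMC1 to PSMC6, whose products form the ring that unfolds substrates, fell in both sorts. PSMC3 led them: 20.6, 20.6 and 22.1 RPKM in untreated 4N cells and 9.30, 8.38 and 9.31 with cytochalasin D, without overlap. Its change was -1.19 ± 0.06 (limma, BH-adjusted p = 2.13e-10). The other 5 changed by -0.38 to -0.65, with PSMC6 and PSMC5 at the ends. All 8 lid genes fell too, with PSMD11 and PSMD12, scaffold subunits of the lid, at -0.91 ± 0.04 and -0.91 ± 0.05, PSMD14, the enzyme that cuts ubiquitin off the substrate, at -0.76 (-1.29 on the log2(RPM + 0.5) scale, where PSMC3 was at -1.23), and PSMD7, its partner, at -0.70. PSMD11 measured 3.23, 3.33 and 3.29 RPKM in untreated 4N cells and 1.505, 1.497 and 1.538 with the drug.

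Genes of the barrel fell less. The 7 tested alpha ring genes were all lower in both sorts, with a median of -0.32 in 4N cells against -0.57 for the ATPases and -0.67 for the lid. PSMA7 fell most among them, from 24.8, 24.1 and 25.5 to 13.9, 13.9 and 15.1 RPKM, a change of -0.77 ± 0.06. Among the beta genes without catalytic activity the changes were -0.67 for PSMB2, -0.22 for PSMB1 and -0.16 for PSMB4, and that of PSMB4 turned to a positive sign under both rescaling and quantile normalization. No test compared barrel and cap.

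The 3 genes of the catalytic subunits did not move in 1 direction. PSMB5, the chymotrypsin-like subunit and main target of bortezomib, went from 5.98, 5.95 and 6.33 RPKM in untreated 4N cells to 4.41, 4.08 and 4.43, a change of -0.45 ± 0.05. PSMB6, the caspase-like subunit, changed by -0.31 ± 0.06. PSMB7, the trypsin-like subunit, rose: 2.92, 2.87 and 3.18 RPKM became 3.65, 3.72 and 3.70, a change of 0.26 ± 0.07 (limma, BH-adjusted p = 0.00298). In 2N cells it rose by 0.24 ± 0.07, from 3.11, 3.08 and 3.29 to 3.82, 3.91 and 3.76. The libraries with the drug were above every untreated one in both sorts. PSMB7 has 1 named pseudogene, and the way shared reads were counted was not given in the sources used here.

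**Figure D2:**
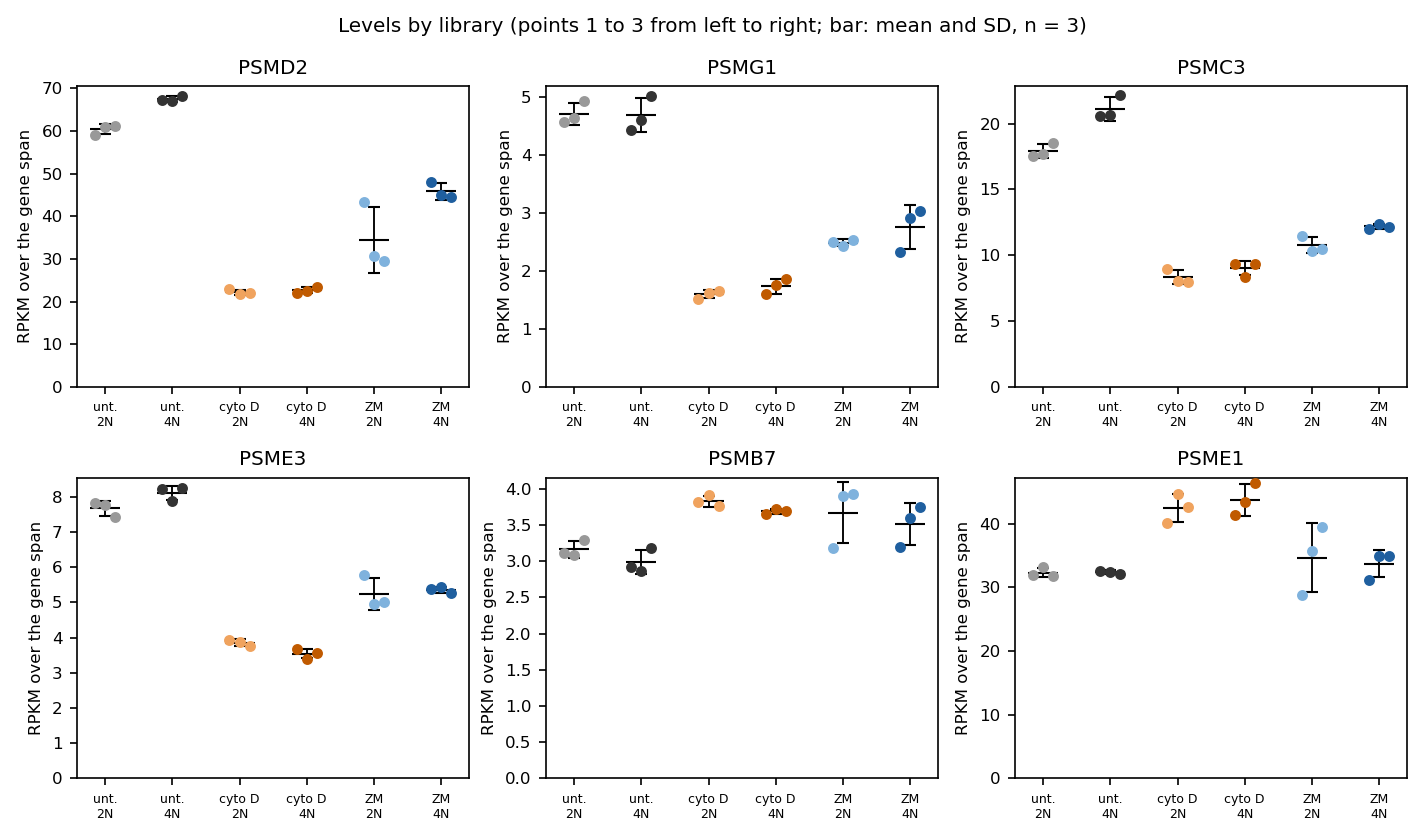
RPKM over the gene span of 6 members in each library (points, replicates 1 to 3 from left to right; bar, mean and SD, n = 3), by treatment (unt., untreated; cyto D, cytochalasin D; ZM, ZM447439) and sort. PSMD2, PSMG1, PSMC3 and PSME3 are lowest with cytochalasin D, where PSMB7 and PSME1 are above all untreated libraries, and replicate 1 of ZM447439 2N stands at 43.5 RPKM for PSMD2 against 30.6 and 29.5 in the other two.

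The activator genes moved in both directions. PSME3, the nuclear activator PA28 gamma, fell from 8.21, 7.90 and 8.24 to 3.67, 3.40 and 3.57 RPKM in 4N cells, a change of -1.09 ± 0.05 (limma, BH-adjusted p = 1.54e-10). PSME1, the interferon-inducible PA28 alpha, rose from 32.6, 32.5 and 32.1 to 41.4, 43.4 and 46.4 RPKM, a change of 0.43 ± 0.09 (limma, BH-adjusted p = 0.00064). In 2N cells it rose by 0.39 ± 0.09, from 32.0, 33.2 and 31.8 to 40.2, 44.6 and 42.6. Its partner PSME2, PA28 beta, did not pass in 4N cells, at -0.11 ± 0.06 (95% confidence interval from limma -0.23 to 0.01), and fell in 2N cells by 0.15, with PSME2 turning sign under quantile normalization in both sorts. PSME4, the activator PA200, fell by 0.33, and PSMF1, the inhibitor PI31, by 0.25.

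Among the assembly chaperones, PSMG1, which pairs with PSMG2 to build the alpha ring, had the next largest fall after PSMD2 among the tested members. It measured 4.43, 4.60 and 5.01 RPKM in untreated 4N cells and 1.596, 1.75 and 1.85 with cytochalasin D, a change of -1.21 ± 0.07 (limma, BH-adjusted p = 2.28e-09). In 2N cells the change was -1.31 ± 0.07. Its partner PSMG2 changed by -0.35 ± 0.03 in 4N cells and -0.19 ± 0.03 in 2N cells, and PSMG3 by -0.66 and -0.60. The 3 cap chaperones PSMD5, PSMD9 and PSMD10 fell in 4N cells by 0.38, 0.68 and 0.34. PSMD10, the oncoprotein gankyrin, was the 1 member that did not pass in 2N cells, at -0.12 ± 0.07.

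With ZM447439 fewer members passed and the changes were smaller. In 4N cells 29 were lower and 1 higher, where 55.2% of all genes passed, 35.5% lower and 19.6% higher, and the medians were -0.21 for the members and -0.07 for all genes tested. After quantile normalization 16 members were lower and 5 higher. In 2N cells 34 were lower and 1 higher, where 56% of all genes passed, 32.5% lower and 23.6% higher, with medians of -0.28 and -0.04. Member reads summed to 3956 ± 64.6 RPM in 4N and 3570 ± 155 in 2N cells.

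The comparisons of the drugs share the untreated libraries. With ZM447439 in 4N cells PSMC3 fell to 11.97, 12.4 and 12.2 RPKM, a change of -0.77 ± 0.06 (limma, BH-adjusted p = 6.14e-08). PSMG1 fell to 2.32, 2.91 and 3.03 RPKM, a change of -0.68 ± 0.07, PSME3 to 5.37, 5.43 and 5.26, a change of -0.56 ± 0.05, and PSMD2 to 48.2, 45.1 and 44.5, a change of -0.55 ± 0.10. None of these overlapped the untreated libraries, though they were chosen by their change on the same libraries. PSMG3, PSMD11, PSMD12, PSMD9, PSMD14 and PSMC5 followed at -0.53 to -0.34. In 2N cells PSMD2, PSMG1 and PSMC3 changed by -0.82, -0.80 and -0.71.

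Of the catalytic genes with ZM447439, PSMB7 passed in both sorts and PSMB6 in 2N cells. PSMB5 stood at 5.47, 5.69 and 5.66 RPKM in 4N cells, a change of -0.11 ± 0.05 that did not pass (interval -0.20 to -0.01, BH-adjusted p = 0.0542 from limma), and at 0.01 ± 0.05 in 2N cells. PSMB6 was at 0.02 ± 0.06 in 4N cells and fell by 0.21 in 2N cells. PSMB7 rose by 0.20 ± 0.07 in 4N and 0.18 ± 0.07 in 2N cells (limma, BH-adjusted p = 0.0217 and 0.0323), with replicate 1 of each sort, at 3.19 RPKM, below replicates 2 and 3 at 3.60 to 3.93. The 4N call was lost without untreated 4N replicate 1 or 2 or ZM447439 4N replicate 2 or 3, and the 2N call without untreated 2N replicate 1 or 2 or ZM447439 2N replicate 2 or 3.

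Of the activators, PSME1 did not pass with ZM447439, at 0.05 ± 0.09 in 4N cells (interval -0.14 to 0.25) and 0.09 ± 0.09 in 2N cells. Its 2N libraries spread widely, at 28.8, 35.8 and 39.6 RPKM. PSME2 fell by 0.15 and 0.30, PSME4 by 0.13 and 0.18, and PSMF1 by 0.22 and 0.24 in 4N and 2N cells.

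**Figure D3:**
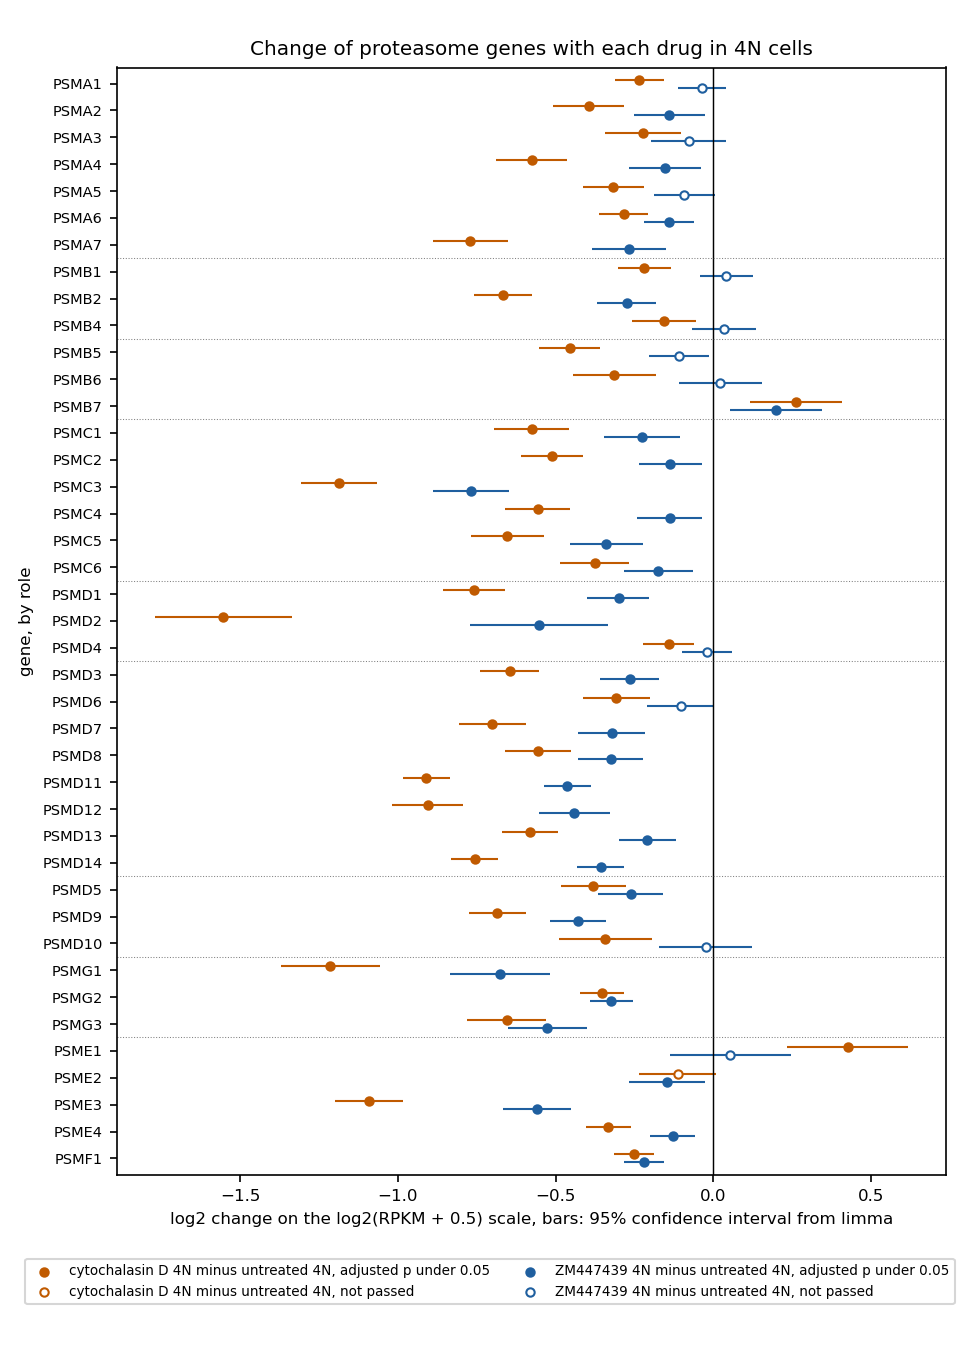
Change of each tested proteasome gene with cytochalasin D (orange) and ZM447439 (blue) against untreated 4N cells, on the log2(RPKM + 0.5) scale, with 95% confidence intervals from limma; filled points passed at an adjusted p of 0.05, open ones did not, and dotted lines separate the roles. Both series compare with the same 3 untreated libraries; PSMD2 lies farthest left at -1.55 with cytochalasin D, and PSME1 and PSMB7 lie right of 0.

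The 2 drugs were then compared directly, at doses and times that the labels do not let one match. In 4N cells 33 members were lower and 1 higher with cytochalasin D than with ZM447439, where 43.5% of all genes passed, 27.8% lower and 15.7% higher; the members' median was -0.31 and that of all genes -0.06. In 2N cells 29 were lower and 1 higher, where 36.9% passed, 23.2% lower and 13.7% higher. PSMD2 had the largest difference in both sorts, at -1.0 ± 0.10 and -0.60 ± 0.10, followed by PSMG1 at -0.54 and -0.51 and, in 4N cells, by PSME3 at -0.53 and PSMA7 at -0.50. PSMB5 was lower with cytochalasin D by 0.35 and 0.38. PSME1 was the 1 gene higher, by 0.37 ± 0.09 in 4N and 0.30 ± 0.09 in 2N cells (limma, BH-adjusted p = 0.00395 and 0.0183); the 2N call was lost without cytochalasin D 2N replicate 2 or 3 or ZM447439 2N replicate 1. PSMB7 did not differ at the threshold, at 0.06 ± 0.07 in both sorts, nor did PSMF1, at -0.03 in 4N and 0.00 in 2N cells.

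Between 4N and 2N cells of 1 treatment the members differed little. In untreated cells 5 members were higher in 4N cells and 0 lower, where 17.4% of all genes passed, 12.9% higher and 4.55% lower, so the members' count is near the background. PSMD10 went from 4.59, 4.56 and 4.57 RPKM in 2N to 5.44, 5.30 and 5.68 in 4N cells, a difference of 0.23 ± 0.07, and PSMC3 differed by 0.23 ± 0.06 (limma, BH-adjusted p = 0.0285 and 0.0114). PSMD9, PSMG2 and PSMD7 were higher by 0.22, 0.18 and 0.16. None of the 5 overlapped between the sorts, but they were chosen by passing on the same libraries, so this is no separate support. The 3 catalytic genes PSMB5, PSMB6 and PSMB7 differed by 0.08, -0.03 and -0.07 and did not pass. Only 3 members passed without untreated 2N replicate 1, 2 or 3 or untreated 4N replicate 1, 2 without untreated 4N replicate 3, and 8 without ZM447439 2N replicate 1.

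With cytochalasin D 0 of 41 members passed between the sorts, and 0% of all genes by limma with BH adjustment. At an unadjusted p under 0.05 there were 0 members and 682 genes. PSMD2 was at 22.0, 22.6 and 23.5 RPKM in 4N and 22.9, 21.8 and 21.9 in 2N cells, which overlap, and the largest difference of a member was -0.11 for PSME3.

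With ZM447439 9 members were higher in 4N cells and 0 lower, where 7.66% of all genes passed, 5.21% higher and 2.45% lower. The members' median was 0.11 and that of all genes 0.01. PSMD2 differed most, by 0.43 ± 0.10 (limma, BH-adjusted p = 0.0229): 43.5, 30.6 and 29.5 RPKM in 2N and 48.2, 45.1 and 44.5 in 4N cells. Replicate 1 of the 2N sort lay close to the 4N values and the other two well below them. PSMA7 was higher by 0.23, PSMC1, PSMA4, PSMB2 and PSMD3 by 0.20 to 0.17, and PSMD11, PSMD4 and PSMD14 by 0.14 to 0.12. The 2N and 4N libraries of 1 drug and 1 number deviated together, though the reported test has no term for this. Within numbers 1, 2 and 3 the members' median was higher in 4N cells by 0.04, 0.19 and 0.10. Of the 41 members 33, 39 and 38 were higher. The medians of all genes tested were 0.016, 0.008 and -0.004. The same member counts were 27, 20 and 31 in untreated cells and 22, 19 and 38 with cytochalasin D. A high count in 1 number was thus not particular to ZM447439. The count of 9 passing members rested on single libraries. Without ZM447439 2N replicate 2 or 3 or ZM447439 4N replicate 2 or 3, 0 members passed. The count was 5 without untreated 2N replicate 1, untreated 4N replicate 1 or 2 or cytochalasin D 2N replicate 2. It was 21 without ZM447439 2N replicate 1. It was 8 with the pair as a block, 11 with the replicate number as a block, 21 with the pair as a random effect (added after seeing the data) and 0 when only the 2 groups entered the fit.

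The interaction tests if a drug alters the gap between the sorts. For cytochalasin D 2 of 41 members passed, PSMD9 and PSMG2, both with a smaller 4N excess than in untreated cells, where 7.85% of all genes passed, 6.04% lower and 1.8% higher. For ZM447439 1 passed, PSMG2, where 10.1% of all genes passed, 6.58% lower and 3.52% higher. PSMG2 measured 0.696, 0.681 and 0.641 RPKM in untreated 2N and 0.820, 0.794 and 0.871 in untreated 4N cells, and 0.505 to 0.571 in all 12 libraries with a drug. For PSMD2 the interaction with ZM447439 was 0.27 ± 0.14 and did not pass, so the larger sort difference with that drug was not shown to differ from the untreated one. The counts of the interactions were 0 to 3 and 0 to 8 when single libraries were left out, so neither is stable to the loss of a library.

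The immunoproteasome genes, outside the set, moved against it with cytochalasin D. PSMB9 rose from 3.19, 3.16 and 3.20 RPKM in untreated 4N cells to 5.95, 5.44 and 5.56, a change of 0.74 ± 0.08, PSMB8 by 0.69 ± 0.06 and PSMB10 by 0.90 ± 0.14 (limma, BH-adjusted p at most 4.18e-05). In 2N cells the changes were 0.84, 0.55 and 0.71. With ZM447439 none passed, at 0.02 to 0.23 over both sorts. Set against the subunit each replaces and measured from untreated 2N cells, the log2 ratio of PSMB9 to PSMB6 was 1.41 ± 0.05 (SD, n = 3) in 2N and 1.35 ± 0.15 in 4N cells with cytochalasin D, 0.35 ± 0.10 and 0.31 ± 0.24 with ZM447439, and 0.21 ± 0.04 in untreated 4N cells. PSMB8 to PSMB5 stood at 0.98 ± 0.07 and 1.07 ± 0.05 with cytochalasin D and at 0.02 ± 0.07 and 0.13 ± 0.05 with ZM447439. PSMB10 to PSMB7 rose least with cytochalasin D, to 0.47 ± 0.19 and 0.51 ± 0.24, and stood at -0.064 ± 0.105 and -0.12 ± 0.057 with ZM447439. The ranges of all 3 ratios with cytochalasin D lay above those of every other group. PSMB8 and PSMB9 overlap each other and an antisense transcript by up to 425 exon bases, so that part of their reads cannot be assigned. PSMB10 shares 170 exon bases with another gene, AC040162.1, on the same strand and carries the same limit.

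**Figure D4:**
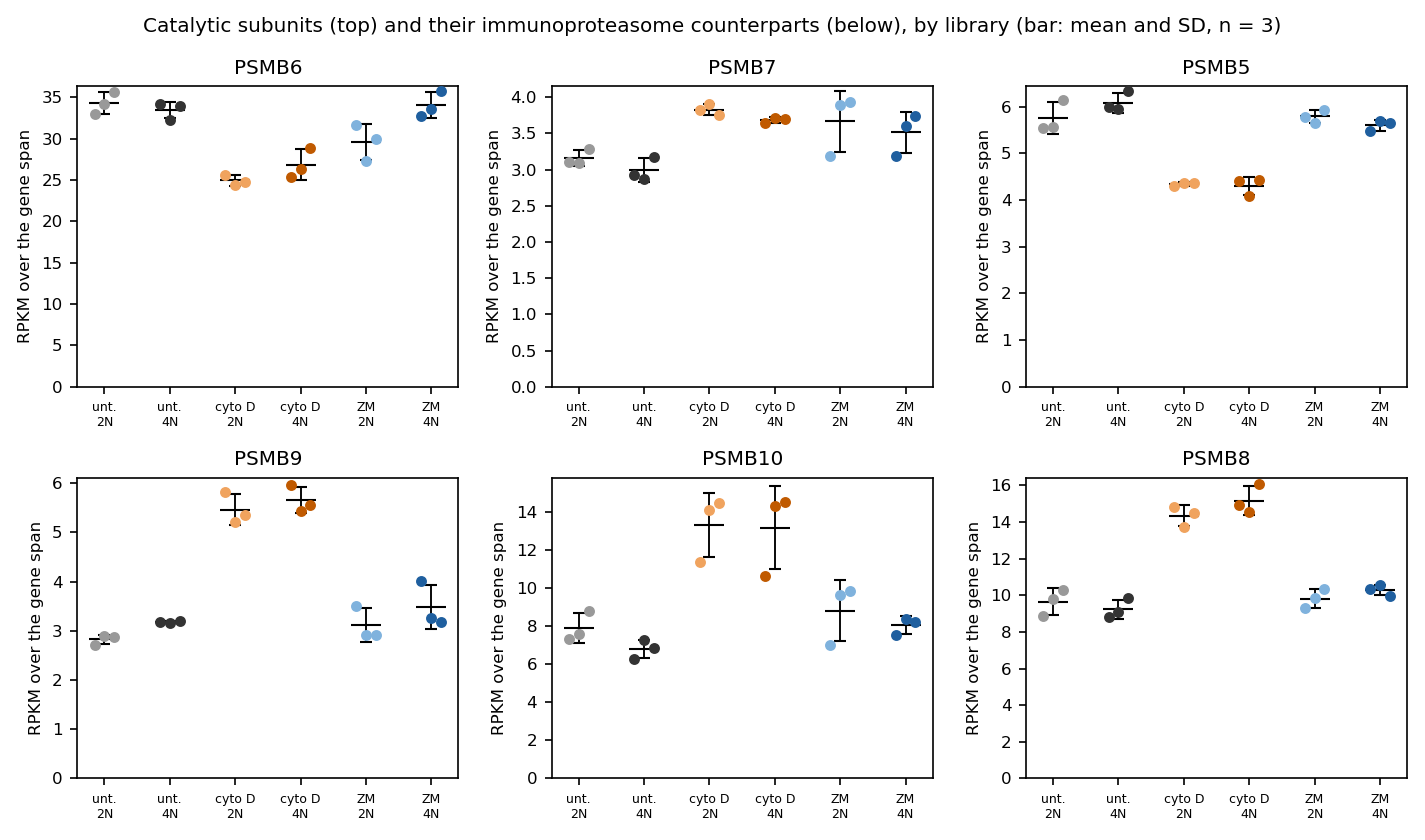
RPKM over the gene span of the catalytic subunit genes (top) and of the immunoproteasome genes that replace them (below), in each library by treatment (unt., untreated; cyto D, cytochalasin D; ZM, ZM447439) and sort; bars are mean and SD, n = 3. PSMB6 and PSMB5 are lower and PSMB9, PSMB10 and PSMB8 higher in the 6 cytochalasin D libraries than in untreated ones, and PSMB7 is higher.

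Factors that bind or assist the particle mostly followed the members. Of 10 tested in 4N cells, 9 fell with cytochalasin D and 7 with ZM447439, and 0 rose with either, where 44.4% and 35.5% of all genes were lower; the same shares stand behind the next lists. USP14, a deubiquitinase of the cap, changed by -0.88 and -0.54, and UCHL5, another, by -0.82 and -0.56. ADRM1, the ubiquitin receptor that holds UCHL5, changed by -0.73 with cytochalasin D. AKIRIN2, which brings proteasomes into the nucleus, changed by -0.54 with ZM447439. AKIRIN2 averaged 1.13 RPKM in untreated 2N and 1.81 in untreated 4N cells, and 0.99 and 1.08 with ZM447439. Its fall thus started from the higher untreated 4N level. Its interactions with cytochalasin D and ZM447439 passed, at -0.55 and -0.42. POMP, a chaperone that closes the barrel, fell by 0.39 in 4N and 0.40 in 2N cells with cytochalasin D and did not pass with ZM447439, at -0.04 and -0.03. In the COP9 signalosome, a relative of the lid, 7 of 9 tested fell with cytochalasin D and 5 with ZM447439 in 4N cells, led by COPS3 at -0.81 and -0.60 and COPS6 at -0.74 and -0.38. Of 13 genes for p97 partners and shuttle factors, 10 fell and 3 rose with cytochalasin D; the shuttle UBQLN4 changed by -0.72, while SQSTM1, the autophagy receptor p62, rose by 1.69 ± 0.28 with cytochalasin D and 1.14 ± 0.28 with ZM447439, with replicate 1 of each drug lower than replicates 2 and 3. Of 6 ubiquitin and E1 genes 4 fell and 0 rose with cytochalasin D, UBA6, an activating enzyme, by 0.58.

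NFE2L1, the transcription factor of the proteasome genes, moved little at the RNA level. It measured 27.7, 26.0 and 26.2 RPKM in untreated 4N cells and 26.3, 23.2 and 22.9 with cytochalasin D, a change of -0.14 ± 0.06 that passed at a BH-adjusted p of 0.0449 (limma) but changed sign under rescaling and quantile normalization. In 2N cells it rose by 0.15 with cytochalasin D and 0.23 with ZM447439. Of the 10 tested genes of its pathway, 3 rose and 1 fell in 4N cells with cytochalasin D, MAFG by 0.40 and NFE2L2 by 0.29, where 26.1% of all genes rose. Among 6 NFE2L2 targets outside the proteasome 2 rose, among them NQO1 by 0.92, and 2 fell. Both counts of rises, with cytochalasin D in 4N cells, are near that background. With ZM447439 in 4N cells 1 of the 10 pathway genes and 3 of the 6 targets rose and 0 fell, where 19.6% of all genes rose. In 2N cells 4 of the 10 pathway genes rose with each drug, and 1 fell with cytochalasin D and 0 with ZM447439. Of the 6 targets 3 rose with each drug in 2N cells, and 2 and 0 fell. There 27.1% and 23.6% of all genes rose. Interferon and peptide loading genes rose in 9 of 11 cases with cytochalasin D in 4N cells, among them IRF9 by 1.51 and HLA-B by 1.44, and in 3 of 11 with ZM447439, where 26.1% and 19.6% of all genes rose. In 2N cells 10 of the 11 rose with cytochalasin D and 7 with ZM447439, where 27.1% and 23.6% of all genes rose.

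In all, 3 members were left out by the filter on low values and are given without a call from it. PSMB11, the subunit of the thymus proteasome, had at most 1 read in a library. PSMA8, the alpha subunit of testis, measured 0.533, 0.541 and 0.524 RPKM in untreated 4N cells and 0.0891, 0.0926 and 0.108 with cytochalasin D, from 289 reads upward. In a fit on RPM, which kept it, its changes were -2.37 with cytochalasin D and -1.23 with ZM447439 in 4N cells, and -2.36 and -1.58 in 2N cells (each ± 0.12), on the log2(RPM + 0.5) scale, where PSMD2 was at -1.57 with cytochalasin D in 4N cells. PSMA8 is a close paralog of PSMA7, and the handling of reads that fit both was not given in the sources used here. PSMG4, a chaperone of the barrel, was higher by 0.74 and 0.59 with cytochalasin D in 4N and 2N cells in the same fit, and it shares 174 exon bases with TUBB2B and 1320 with SLC22A23 on the opposite strand.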

How the data were processed

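Polyadenylated RNA of 18 libraries was prepared without strand information, per the labels' protocols. The authors deposited 1 table of RPKM values. CASAVA 1.8.2, TopHat2, edgeR and hg19 stand in the submitters' processing notes, without settings, and no counter was named. For 52338 genes (90.6%) a symbol was found. Low values came out as whole reads within 0.05 reads in 88.9% to 89.5% of cases with the gene span and 10.1% to 10.9% with exon length. PSMB3 was not analysed here.

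RPKM are not counts, so log2(RPKM + 0.5) was fitted with limma 3.58.1 in R 4.3.3: 1 mean per group over 18 libraries, a trend on the mean, two-sided tests, Benjamini-Hochberg (BH) adjustment over 13037 genes and a threshold of 0.05, in 11 comparisons. The code was tested on simulated data. Members and lists were chosen with earlier results of these data known. Named were the 10 members with the largest passing change, those passing against the majority, the catalytic, activator and inhibitor genes, NFE2L1, POMP, the immunoproteasome genes and the top 3 of each related list; members left out by the filter were named too. Some genes that the rule names are not reported here. The 2N and 4N libraries of 1 drug and number deviated together (correlations 0.192 to 0.632). Pairs, called cultures here, therefore entered as a block in an alternative, while the reported tests have no pair term. Libraries of number 2 did not deviate together between a drug and untreated cells (-0.206 to -0.071). Between the 2 drugs, libraries of 1 number and sort did (0.231 to 0.523), and the reported tests have no number term. P-values measure the spread between replicates of 1 line. Alternatives were other pseudocounts, filters, scalings, RPM (from the gene span), blocks and left-out libraries.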

Additional observations from a re-analysis of the deposited data

Results flagged for a closer look

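In 3 tests of members the difference between 4N and 2N cells changed with a drug. These were 2 of 41 members with cytochalasin D and 1 of 41 with ZM447439, where 7.85% and 10.1% of all genes passed. PSMD9 had an interaction of -0.23 with cytochalasin D (limma, BH-adjusted p = 0.0268), with 1.64, 1.70 and 1.65 RPKM in untreated 2N, 2.06, 1.96 and 2.04 in untreated 4N, and 1.01 to 1.12 in the 6 libraries with the drug. PSMG2 had -0.16 with cytochalasin D and -0.16 with ZM447439 (BH-adjusted p = 0.0394 and 0.0404 from limma); both rest on the same untreated libraries. NFE2L1 had -0.29 with cytochalasin D and -0.29 with ZM447439 (BH-adjusted p = 0.0431 and 0.0417 from limma), again with shared untreated libraries. Each of the 5 passed in some alternatives and was lost in others.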

How the results depend on the processing

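Counts of members changed by each drug against untreated cells, lower and higher together, stayed within 1.5 times of the reported ones. This held in all 30 alternatives of each comparison. The number lower alone moved further with ZM447439 in 4N cells after quantile normalization, as given above. Members lower in every fit that tested them numbered 31 with cytochalasin D and 15 with ZM447439 in 4N cells. In 2N cells they numbered 35 and 29. PSMB7 and PSME1 were higher in every fit with cytochalasin D in both sorts. Leaving out single libraries gave 39 to 41 (cytochalasin D) and 25 to 31 (ZM447439) in 4N cells, 39 to 40 and 32 to 37 in 2N cells, 33 to 36 and 26 to 32 between the drugs, 2 to 8, 0 to 0 and 0 to 21 between sorts (untreated, cytochalasin D, ZM447439), and 0 to 3 and 0 to 8 for the interactions. Between untreated sorts 3 members passed after rescaling to a common median ratio or quantile normalization (2 higher, 1 lower). With only the groups compared in the fit, 0 passed between the ZM447439 sorts and 18 between the drugs in 2N cells.

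For the interaction with cytochalasin D, 1 member passed with a pseudocount of 0.1, a filter at 1 RPKM, no trend or only its own groups, and 0 after rescaling or quantile normalization. For ZM447439, 0 passed with each of the former 4 settings, 3 after rescaling and 9 after quantile normalization. The replicate block by culture gave 1 and 0 for the 2 interactions and the block by number 2 for ZM447439. Added after seeing the data were the culture as a random replicate block, with 21 between the ZM447439 sorts and 8 for the ZM447439 interaction, and leaving out the 6 libraries farthest from their group, with 8 between the untreated sorts, 27 between the ZM447439 sorts and 15 for the ZM447439 interaction. The blocks moved no other count by over 1.5 times.

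Signs turned under rescaling with cytochalasin D in 4N cells for PSMD4 (0.012), PSMB4 (0.006) and NFE2L1 (0.021), and under quantile normalization for PSME2 (0.18), PSMD4 (0.10), PSMB4 (0.18) and NFE2L1 (0.15), and in 2N cells for PSME2 (0.03). With ZM447439 in 4N cells they turned under quantile normalization for PSMC4 (0.027), PSMA4 (0.083), PSME2 (0.082), PSMA2 (0.018) and PSMD4 (0.15). The cause of these changes was not tested.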
